A study of Mus musculus with 15 samples.

Results

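RNA-Seq counts of homozygous Tmem135 mutant eyecups were compared with those of WT eyecups, and every protein-coding gene outside the lipid synthesis pathways was followed across the cell types and pathways of the tissue. The comparison held 9 of the 15 libraries of the series. The 4 WT libraries came from C57BL/6J mice and the 5 FUN025/FUN025 libraries from mice with 2 copies of the FUN025 allele of Tmem135 on the same background. The other 6 libraries, from FUN025/+ mice with 1 copy, entered the estimate of the spread and are given as a reference. All mice were 2.5 months old, and each library held both eyecups of 1 mouse, that is the retinal pigment epithelium (RPE), choroid and sclera left after the neural retina was taken away. Males and females were used, and the sex of each mouse was not given in the labels. Levels are in CPM (counts scaled to the library total with TMM factors). A gene was tested if it reached 1 CPM of the plain library total, without these factors, in at least 4 of the 9 libraries, which 17691 of 55421 listed genes did, 14505 of them protein-coding.

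The RPE is a pigmented epithelium that recycles visual pigment, engulfs shed photoreceptor tips and moves ions, water and nutrients between the retina and the choroid. The choroid behind it is a dense vascular bed with fenestrated capillaries, pericytes, fibroblasts, pigment cells and resident macrophages, and the sclera is a collagen-rich outer coat to which the eye muscles attach. Tmem135 encodes a transmembrane protein of mitochondria and peroxisomes that is linked to mitochondrial division and lipid handling.

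Tmem135 (ENSMUSG00000039428, chr7:89139714-89404222 in GRCm38) was at 65.6, 63.6, 66.2 and 59.2 CPM in the 4 WT eyecups and at 85.4, 89, 93.7, 82.9 and 91.2 CPM in the 5 FUN025/FUN025 eyecups. The homozygous libraries were all above the WT libraries (log2 fold change 0.47 ± 0.07 SE, adjusted p = 1.1e-04 by edgeR's quasi-likelihood test with Benjamini-Hochberg adjustment). The FUN025/+ eyecups lay between them at 74.9 ± 7.11 CPM (SD, n = 6). FUN025 is a base change, which counts per gene do not show, so the level of Tmem135 does not check the genotype labels.

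Total counts ran from 18094977 to 20029919 in WT and from 11053535 to 15038383 in FUN025/FUN025 libraries, so that every WT library was deeper and 3 counts stood for 0.15 to 0.166 CPM in WT and 0.198 to 0.273 CPM in homozygous eyecups. FUN025/+ libraries held 10903183 to 13456349 counts. Means are given ± SD over 4 WT, 6 FUN025/+ or 5 FUN025/FUN025 (homozygous) mice, values in a list follow the replicate numbers, and a log2 value beside a gene is its fold change against WT unless FUN025/+ is named. No batch is given in the labels, and depth and genotype cannot be told apart. WT replicate 2 had the highest rod photoreceptor level of the libraries and WT replicate 3 the highest corneal level of the WT libraries, with the summed markers given below.

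At an adjusted p under 0.05, 2039 of the 14505 protein-coding genes tested (14.1%) differed between FUN025/FUN025 and WT eyecups, 943 higher (6.5%) and 1096 lower (7.56%). Most changes were small. The median size over these genes was 0.29 on the log2 scale, and 1760 of them (86.3%) changed by less than 1.5-fold. At 2-fold or more there were 69 genes (0.476%), 38 higher (0.262%) and 31 lower (0.214%). The lipid synthesis lists supplied 30 of the 2039 genes, which left 2009 beyond them. The values of the genotypes did not overlap for 14.4% of protein-coding genes, and 1527 of the called genes were among these. Only 18 protein-coding genes passed the filter through FUN025/FUN025 libraries alone, 8 of them called, and 4 through WT libraries alone, 3 of them called. The share of a gene list that was called, in either direction, is given below beside its counts and stands against the 14.1% of all protein-coding genes. In whole tissue, fewer cells of a type and less RNA per cell cannot be told apart. Without WT replicate 4 the count fell to 1122 genes, without WT replicate 3 the 2-fold count rose to 115, and with the levels of striated muscle and rod markers as covariates 471 genes were called, and 67 of the 126 called genes named in the text lost their call.

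The direction of change followed the base composition of the transcripts. Protein-coding genes were split into 5 equal groups by GC content. In the group lowest in GC (31.9% to 44.7%), 415 genes were higher and 70 lower, with a median log2 fold change of 0.08. In the group highest in GC (55.9% to 76.5%), 53 were higher and 474 lower, with a median of -0.11. The groups between had medians of 0.04, -0.02 and -0.07. Against FUN025/+ eyecups, whose libraries were close in depth, the same groups had medians between -0.0034 and 0.0041. An offset for GC content and length, added after the data were seen, brought the medians to between -0.017 and 0.0029 and left 2030 of all 17691 genes called in place of 2638 (14.9%), with 1661 called in both fits. What set this gradient was not tested.

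**Figure D1:**
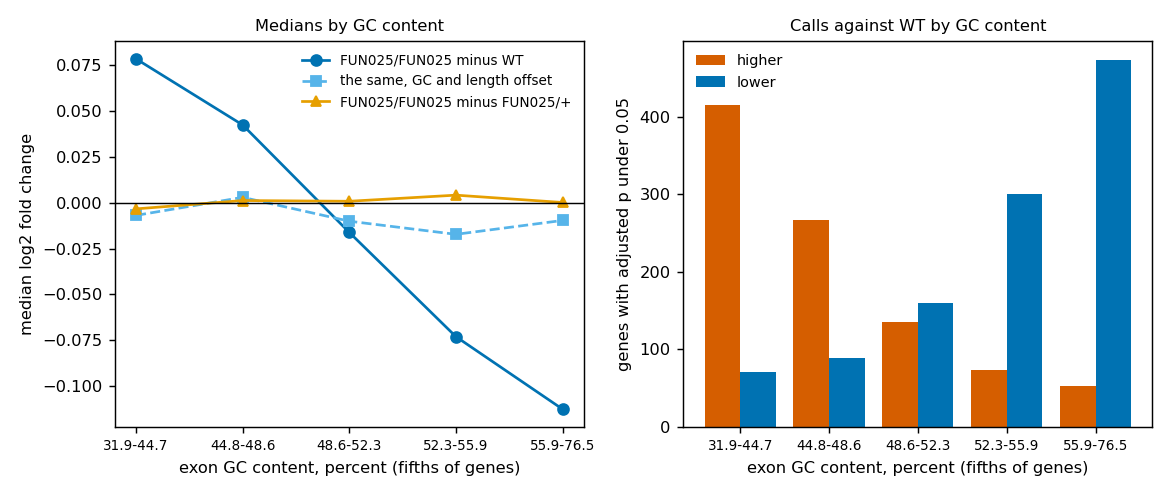
Protein-coding genes called between FUN025/FUN025 and WT eyecups in 5 equal groups of GC content, split into higher and lower in homozygous eyecups, with the median log2 fold change of each group. Higher calls fall from 415 to 53 and lower calls rise from 70 to 474 from the group poorest to that richest in GC.

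Among the largest rises beyond lipid synthesis were those of genes nearly silent in WT eyecups. Cst7 (ENSMUSG00000068129, chr2:150570415-150578944), which encodes cystatin F, a cysteine protease inhibitor of myeloid cells, was at 0.111, 0.268, 0.20 and 0.33 CPM in WT and at 4.95, 4.07, 3.6, 7.84 and 3.64 CPM in homozygous eyecups (a difference of 4.36 on the log2 scale). Cfi (ENSMUSG00000058952, chr3:129835884-129875332), complement factor I, which cleaves C3b and C4b, was at 0.719, 0.751, 0.30 and 0.165 CPM in WT and at 8.58, 9.66, 9.53, 5.61 and 4.92 CPM in homozygous eyecups (a difference of 3.97 on the log2 scale). Every homozygous library was above every WT library for both genes, which are among the 18 that passed the filter through homozygous libraries alone and so had to differ, and their values are given with no test. They rest on few reads in WT, 17 and 36 in all 4 libraries together for Cst7 and Cfi, against 308 and 497 in the 5 FUN025/FUN025 libraries. FUN025/+ eyecups were at 0.52 ± 0.233 CPM and 0.629 ± 0.204 CPM (SD, n = 6), also under the homozygous levels. In the comparison of homozygous with FUN025/+ eyecups, which shares the homozygous libraries, 0.614% of protein-coding genes were called.

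A pair of neighbouring genes on chromosome 9 rose together. Chrna3 (chr9:55010111-55026562) and Chrnb4 (chr9:55028154-55048779) encode the alpha3 and beta4 subunits of ganglionic nicotinic acetylcholine receptors. Chrna3 was at 1.16, 2.25, 0.949 and 1.21 CPM in WT and at 5.15, 5.6, 7.61, 5.04 and 4.1 CPM in homozygous eyecups (log2 fold change 1.98 ± 0.25 SE, adjusted p = 4.1e-05). Chrnb4 was at 28.9, 28.6, 26.1 and 29.7 CPM in WT and at 68.3, 75.3, 94.3, 69.3 and 70.4 CPM in homozygous eyecups (log2 fold change 1.42 ± 0.09 SE, adjusted p = 2.8e-08). Neither gene's groups overlapped, as the naming rule required. Both were also above FUN025/+ eyecups (log2 differences of 1.68, adjusted p = 3.7e-04 and of 1.30, adjusted p = 4.2e-08). The promoters of this pair and of Cst7, with the largest rise among the genes named, are shown. The windows of neighbours that moved together can thus be read beside each other. Each run holds 250 bases before and 50 after the start, 5′ to 3′ on the gene's strand, from RefSeq on GRCm38.p6, with the GC box CCGCCC or GGGCGG (1 motif read on both strands) in capitals.

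Cst7 (chr2:150570165-150570464, plus strand): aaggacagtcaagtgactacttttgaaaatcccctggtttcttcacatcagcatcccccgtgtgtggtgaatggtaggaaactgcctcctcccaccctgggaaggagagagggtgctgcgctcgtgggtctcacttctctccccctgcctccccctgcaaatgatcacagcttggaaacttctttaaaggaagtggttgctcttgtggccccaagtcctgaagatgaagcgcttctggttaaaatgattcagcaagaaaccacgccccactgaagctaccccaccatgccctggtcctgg

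Chrna3 (chr9:55026513-55026812, minus strand): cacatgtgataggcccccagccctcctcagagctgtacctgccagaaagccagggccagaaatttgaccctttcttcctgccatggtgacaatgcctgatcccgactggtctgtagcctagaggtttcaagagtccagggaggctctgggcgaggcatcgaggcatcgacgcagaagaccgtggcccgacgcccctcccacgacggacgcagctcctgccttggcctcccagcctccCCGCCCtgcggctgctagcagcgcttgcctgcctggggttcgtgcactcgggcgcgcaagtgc

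Chrnb4 (chr9:55048495-55048794, minus strand): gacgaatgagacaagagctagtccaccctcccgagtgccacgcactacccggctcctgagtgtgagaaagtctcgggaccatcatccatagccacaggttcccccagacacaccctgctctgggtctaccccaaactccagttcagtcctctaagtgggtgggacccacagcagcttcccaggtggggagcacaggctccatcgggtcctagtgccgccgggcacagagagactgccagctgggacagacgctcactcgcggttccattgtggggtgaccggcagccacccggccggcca

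GC made up 53.3% of the Cst7 window, 64.3% of the Chrna3 window and 63% of the Chrnb4 window, against a median of 52.7% over 32851 windows of the same length. The Chrna3 window held 1 GC box and the others held 0, where 35.7% of all windows held at least 1. A STAT motif (TTCNNNGAA on either strand) lay in none of the 3 windows and in 8.30% of all windows. Of the 15 genes with the largest rises, 9 had a window, 3 of them with a GC box and 1 with a STAT motif. Of the 15 with the largest falls, 9 had a window, 5 with a GC box and 1 with a STAT motif. A gene was counted if any of its windows held the motif, so these counts are not on the scale of the shares of single windows.

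A2m (chr6:121635376-121679227), alpha-2-macroglobulin, a secreted inhibitor of many proteases, was the most abundant gene among the large rises. It was at 352, 346, 350.4 and 320.4 CPM in WT and at 849, 994, 1192, 823 and 892 CPM in homozygous eyecups (log2 fold change 1.47 ± 0.09 SE, adjusted p = 1.8e-08). The lowest homozygous library was above the highest WT library, as the naming rule required. FUN025/+ eyecups, at 383 ± 27.2 CPM, were lower than the homozygous eyecups (log2 difference 1.31, adjusted p = 3.8e-08). Lalba, alpha-lactalbumin, was at 2.49, 2.09, 2.8 and 2.7 CPM in WT and at 6.99, 8.05, 9.53, 6.52 and 8.83 CPM in homozygous eyecups (log2 fold change 1.66 ± 0.22 SE, adjusted p = 5.8e-05). Adam7, of the ADAM metalloprotease family, rose from 14.9 to 37.2 CPM on average (1.32, adjusted p = 7.4e-08), and Kcnab1, a potassium channel beta subunit, rose from 24.6 to 50.6 CPM (1.04, adjusted p = 2.2e-05). Lalba, Adam7 and Kcnab1 also exceeded FUN025/+ eyecups (log2 differences of 1.86, adjusted p = 3.8e-05, of 1.00, adjusted p = 2.9e-06 and of 0.94, adjusted p = 1.1e-04). Cd300lf, an inhibitory receptor of myeloid cells, averaged 2.25 ± 0.743 CPM in WT and 4.85 ± 0.213 CPM in homozygous eyecups (1.11, adjusted p = 0.0017), and its difference from FUN025/+ missed the threshold (log2 difference 0.77, adjusted p = 0.083). With the striated muscle and rod marker levels as covariates the call of Cd300lf against WT was lost (log2 fold change 1.13, adjusted p = 0.13).

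A second set of large rises was of similar size in FUN025/+ eyecups. Nphs1 (chr7:30458315-30487223), nephrin, best known from the kidney filter, was at 1.16, 0.912, 1.25 and 1.38 CPM in WT and at 10.4, 7.82, 10.01, 9.49 and 10.8 CPM in homozygous eyecups (log2 fold change 3.04 ± 0.15 SE, adjusted p = 9.4e-10). Lars2, the mitochondrial leucyl-tRNA synthetase, was at 88.3, 81.2, 82.7 and 88.8 CPM in WT and at 387, 473, 299.5, 569 and 391 CPM in homozygous eyecups (log2 fold change 2.31 ± 0.19 SE, adjusted p = 3.9e-06). FUN025/+ eyecups were at 10.5 ± 1.06 CPM for Nphs1 and 401 ± 84 CPM for Lars2. Gadl1, a decarboxylase of acidic amino acids, averaged 1.24 ± 0.318 CPM in WT and 4.02 ± 1.05 CPM in homozygous eyecups (1.70, adjusted p = 2.7e-05) and 4.04 ± 0.406 CPM in FUN025/+ eyecups. The mitochondrially encoded ATP synthase gene mt-Atp8 averaged 0.87 ± 0.203 CPM in WT and 2.7 ± 0.434 CPM in homozygous eyecups (1.63, adjusted p = 2.5e-04) and 2.99 ± 0.91 CPM in FUN025/+ eyecups. The log2 differences between homozygous and heterozygous eyecups were -0.11 for Nphs1, 0.08 for Lars2 and -0.14 for mt-Atp8, each with an adjusted p = 1. Nphs1 shares 11.9% of its 31-base stretches with other genes, and 21.1% of mt-Atp8 overlaps another gene, so their counts are uncertain.

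Gnb3, a G protein beta subunit of cones and ON bipolar cells, was at 10.6, 21.7, 6.14 and 5.67 CPM in WT and at 27.2, 31.8, 36.7, 23.8 and 24.7 CPM in homozygous eyecups (log2 fold change 1.39 ± 0.42 SE, adjusted p = 0.045). It stood just past the threshold, and the call was lost without any 1 of the 5 FUN025/FUN025 mice, without WT replicate 1, 3 or 4 and without FUN025/+ replicate 2 or 3 (largest adjusted p = 0.12).

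**Figure D2:**
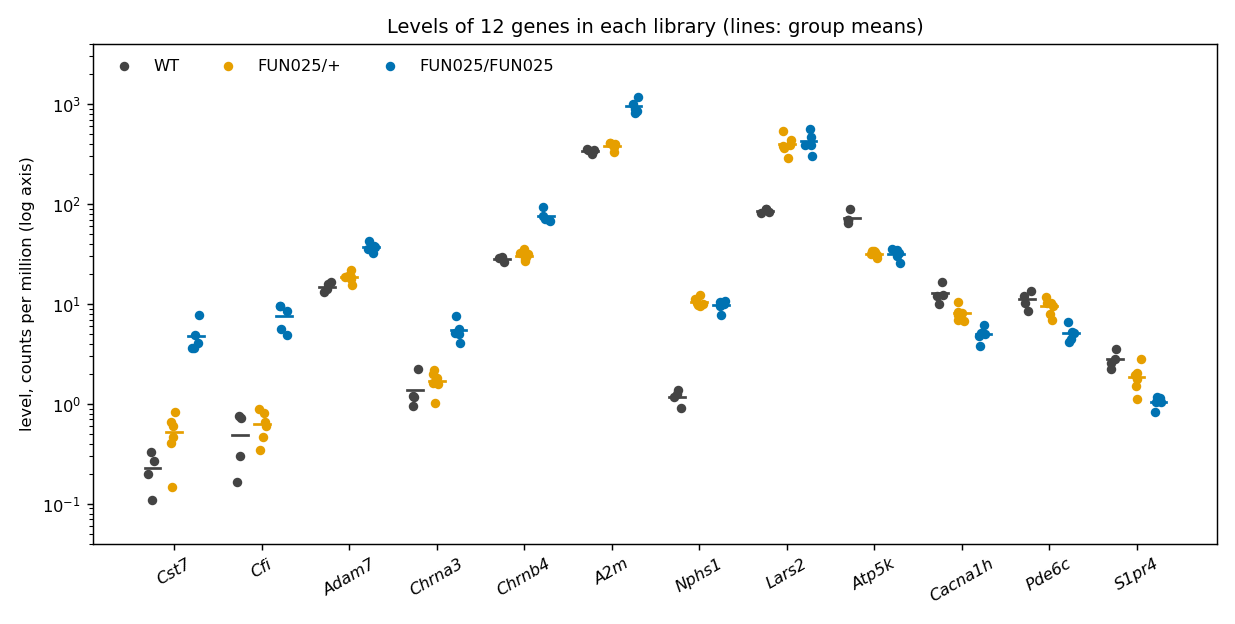
Levels of 12 genes in each library in CPM on a log axis, with a line at each group mean, for WT (4), FUN025/+ (6) and FUN025/FUN025 (5) eyecups. Cst7, Cfi, Adam7, Chrna3, Chrnb4 and A2m are highest in homozygous eyecups, while Nphs1, Lars2 and Atp5k have like levels in both mutant genotypes.

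The large falls included those of a channel, a receptor, a cone enzyme and a subunit of ATP synthase. Cacna1h (chr17:25374285-25433783), a T-type calcium channel, was at 12.1, 16.6, 10.04 and 12.4 CPM in WT and at 3.76, 5.14, 5.05, 6.11 and 4.74 CPM in homozygous eyecups (log2 fold change -1.37 ± 0.16 SE, adjusted p = 1.8e-05). Pde6c (chr19:38132781-38183958), the catalytic subunit of cone phosphodiesterase, was at 12, 13.6, 8.44 and 10.4 CPM in WT and at 4.16, 4.45, 5.29, 5.12 and 6.56 CPM in homozygous eyecups (log2 fold change -1.12 ± 0.17 SE, adjusted p = 2.2e-04). FUN025/FUN025 and WT values did not overlap for either gene, as the naming rule required. Both were also below FUN025/+ eyecups (log2 differences of -0.71, adjusted p = 0.039 and of -0.89, adjusted p = 0.0079). S1pr4, a sphingosine 1-phosphate receptor of leukocytes, was at 2.6, 2.25, 2.85 and 3.58 CPM in WT and at 1.06, 1.15, 1.04, 0.825 and 1.18 CPM in homozygous eyecups (log2 fold change -1.42 ± 0.23 SE, adjusted p = 5.7e-04), with FUN025/+ eyecups at 1.87 ± 0.579 CPM. Atp5k (chr5:108433244-108434448), subunit e of mitochondrial ATP synthase, was at 69, 69.2, 65.3 and 89.8 CPM in WT and at 30.5, 26, 34.9, 35.3 and 32.4 CPM in homozygous eyecups (log2 fold change -1.20 ± 0.09 SE, adjusted p = 2.2e-07). Its level in FUN025/+ eyecups was 32 ± 2.08 CPM, and it shares 10.9% of its stretches with other genes, which leaves its count uncertain. With the striated muscle and rod marker levels as covariates the call of Cacna1h was lost (log2 fold change -0.70, adjusted p = 0.14).

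The largest falls by fold were of genes that were high in WT replicate 2. Cdk5r2, a neuronal activator of Cdk5, was at 1.88, 9.98, 1.25 and 1.32 CPM in WT and at 0.528, 0.844, 1.2, 0.825 and 0.546 CPM in homozygous eyecups (log2 fold change -2.18 ± 0.66 SE, adjusted p = 0.041). Samd7, a transcriptional repressor of photoreceptors, was at 2.32, 8.9, 1.25 and 1.1 CPM in WT and at 0.726, 1.07, 1.04, 0.413 and 0.546 CPM in homozygous eyecups (log2 fold change -2.13 ± 0.66 SE, adjusted p = 0.045). Slc12a5, the neuronal potassium chloride cotransporter, was at 18.9, 56.3, 12.7 and 15.7 CPM in WT and at 5.94, 10.6, 12.4, 9.25 and 6.47 CPM in homozygous eyecups (log2 fold change -1.54 ± 0.48 SE, adjusted p = 0.049). In each of these genes WT replicate 2 stood far above the other WT libraries. Wdr17 averaged 6.0 ± 4.09 CPM in WT and 2.16 ± 0.71 CPM in homozygous eyecups (-1.46, adjusted p = 0.027), and Syt13, of the synaptotagmin family, averaged 3.38 ± 2.22 CPM in WT and 1.42 ± 0.369 CPM in homozygous eyecups (-1.26, adjusted p = 0.033). Without WT replicate 2 all 5 calls were lost, with adjusted p-values of 0.17 for Cdk5r2, 0.18 for Samd7, 0.18 for Slc12a5, 0.082 for Wdr17 and 0.16 for Syt13, and single other mice also ended them (for Slc12a5, 13 of the 15 mice). With the muscle and rod covariates the log2 values were -0.31 for Cdk5r2, -0.68 for Samd7, -0.41 for Slc12a5, 0.0268 for Wdr17 and -0.24 for Syt13, none of them called.

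The remaining large falls were of genes at low to moderate levels. Igsf9, of the immunoglobulin superfamily, averaged 5.4 ± 2.41 CPM in WT and 2.43 ± 0.59 CPM in homozygous eyecups (-1.15, adjusted p = 0.011). Wnt10b, a Wnt ligand, averaged 4.24 ± 0.571 CPM in WT and 2.07 ± 0.726 CPM in homozygous eyecups (-1.02, adjusted p = 0.011). Trdn, triadin, which anchors calcium release units in striated muscle, averaged 24.5 ± 7.05 CPM in WT and 11.3 ± 3.13 CPM in homozygous eyecups (-1.12, adjusted p = 0.045). Spsb4, a SOCS box protein with 14% shared stretches and hence an uncertain count, averaged 1.52 ± 0.497 CPM in WT and 0.708 ± 0.202 CPM in homozygous eyecups (-1.07 on the log2 scale) and passed the filter through WT libraries alone, so that it had to differ and no test is given, and Foxs1, a forkhead transcription factor, averaged 1.72 ± 0.477 CPM in WT and 0.836 ± 0.264 CPM in homozygous eyecups (-1.02, adjusted p = 0.014). Fam196a averaged 3.48 ± 0.302 CPM in WT and 1.73 ± 0.666 CPM in homozygous eyecups (-0.99, adjusted p = 0.028). FUN025/FUN025 and WT values did not overlap for these genes, as the naming rule required. Without WT replicate 4 the calls of Trdn, Foxs1 and Fam196a were lost, with adjusted p-values of 0.13, 0.062 and 0.069, and that of Fam196a was also lost without WT replicate 2 (adjusted p = 0.056). The call of Trdn was lost as well without WT replicate 1 or 3, FUN025/FUN025 replicate 1, 2, 3 or 5 or FUN025/+ replicate 3 or 4. With the muscle and rod covariates Igsf9, Wnt10b, Trdn, Foxs1 and Fam196a lost their calls. Their log2 values were then -0.53, adjusted p = 0.52 for Igsf9, -1.33, adjusted p = 0.14 for Wnt10b, -0.06, adjusted p = 0.96 for Trdn, -1.03, adjusted p = 0.31 for Foxs1 and -0.11, adjusted p = 0.95 for Fam196a.

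Endothelial genes of the choroid were lower in FUN025/FUN025 eyecups. Of 30 markers tested, 18 were called lower and 0 higher (60.0%), with a median log2 fold change of -0.33, where 7.56% of all protein-coding genes were called lower and their median was -0.01. Cdh5, the VE-cadherin of endothelial junctions, was at 97.5, 96.4, 102 and 107 CPM in WT and at 78.2, 74.4, 71.8, 64.4 and 70.04 CPM in homozygous eyecups (log2 fold change -0.49 ± 0.08 SE, adjusted p = 3.9e-04). Esam, an adhesion molecule of the same junctions, was at 59.5, 60.4, 66.4 and 65 CPM in WT and at 48.4, 47.2, 48.3, 43.8 and 48.6 CPM in homozygous eyecups (log2 fold change -0.41 ± 0.06 SE, adjusted p = 2.7e-04). Every homozygous library was below every WT library for both genes. Robo4, a receptor of blood vessels, averaged 38.1 ± 3.78 CPM in WT and 26.6 ± 1.08 CPM in homozygous eyecups (-0.52, adjusted p = 4.7e-04), and Nos3, the endothelial nitric oxide synthase, averaged 53.4 ± 5.91 CPM in WT and 33.1 ± 4.83 CPM in homozygous eyecups (-0.69, adjusted p = 4.6e-04), with 25.1% of the stretches of Nos3 shared with other genes. The summed level of the 30 markers was 2919, 2758, 3027 and 3173 CPM in WT and 2553, 2439, 2384, 2146 and 2228 CPM in homozygous eyecups, without overlap. FUN025/+ eyecups summed to 2282 to 2940.5 CPM, and against them 0 of the 30 markers were called, with a median of -0.15. The markers had a median GC content of 54.2%. With the offset for GC and length 14 were called at a median of -0.33, and with the muscle and rod covariates 6 were called while the median was -0.49, further below 0.

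**Figure D3:**
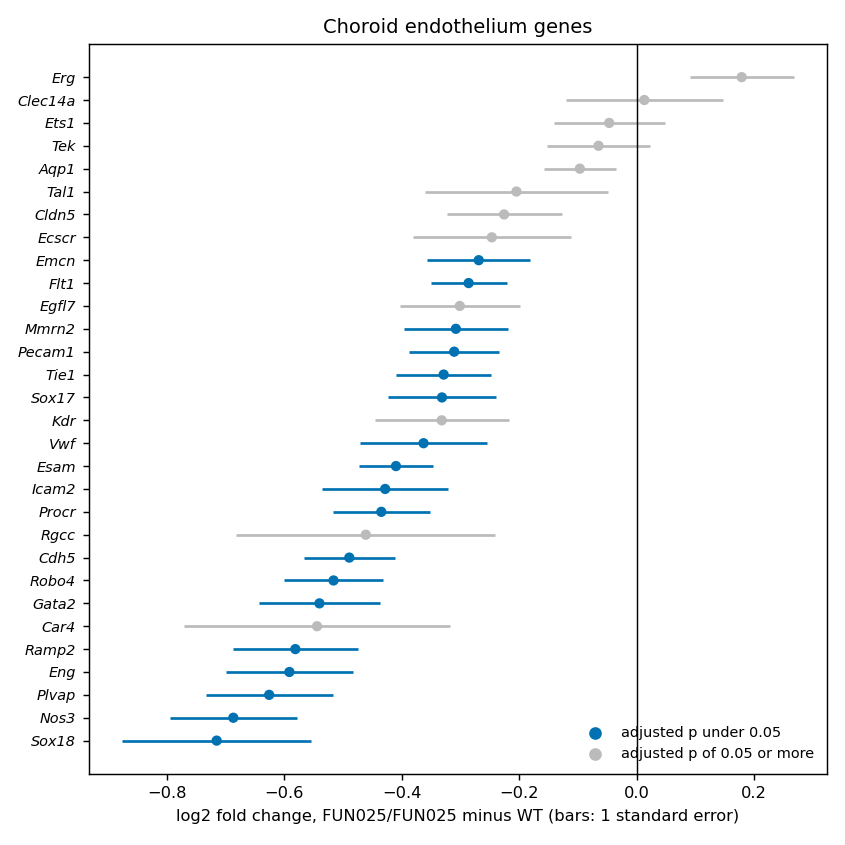
Log2 fold change of each of the 30 choroid endothelium genes between FUN025/FUN025 and WT eyecups, with a bar of 1 standard error, in blue where the adjusted p is under 0.05. Of the 30 genes, 28 lie below 0 and 18 are blue, all of these below 0.

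In the angiogenesis and hypoxia list 8 of 45 genes were lower and 1 higher (20%). Notch4, a Notch receptor of endothelium, averaged 51.8 ± 4.53 CPM in WT and 35.3 ± 4.24 CPM in homozygous eyecups (-0.55, adjusted p = 3.9e-04). Flt1, a receptor for vascular endothelial growth factor, averaged 207 ± 8.42 CPM in WT and 169.7 ± 12.5 CPM in homozygous eyecups (-0.29, adjusted p = 0.0067), and Ramp2, a partner of the adrenomedullin receptor with 31.7% shared stretches, averaged 106 ± 15 CPM in WT and 71.2 ± 4.05 CPM in homozygous eyecups (-0.58, adjusted p = 0.0018). Hif1a, the oxygen-sensitive transcription factor, was the gene called higher (0.32, adjusted p = 0.0087). Notch4, Flt1, Ramp2 and Hif1a had no overlap between the genotypes. Several of these genes are also endothelial markers. Without WT replicate 4 the list had 4 calls, and without WT replicate 3 or FUN025/FUN025 replicate 5 it had 5, and with the muscle and rod covariates 2. In the coagulation and fibrinolysis list 5 of 23 genes were lower and 2 higher (30.4%), though 13 of the 23 log2 values were above 0 and the median was 0.10. Procr, the endothelial protein C receptor, averaged 25.5 ± 0.82 CPM in WT and 18.8 ± 1.85 CPM in homozygous eyecups (-0.44, adjusted p = 0.0018), and Thbd, thrombomodulin, averaged 132 ± 8.74 CPM in WT and 105 ± 9.94 CPM in homozygous eyecups (-0.34, adjusted p = 0.0041), while A2m was among those higher. That list had 3 calls without WT replicate 4 and 4 without FUN025/FUN025 replicate 2 or 3. Among 18 pericyte and smooth muscle genes 2 were lower (11.1%; 1 without WT replicate 4 and 1 with the covariates), and Mcam, an adhesion molecule of vessels, averaged 76.4 ± 7.01 CPM in WT and 53 ± 3.79 CPM in homozygous eyecups (-0.53, adjusted p = 8.8e-04).

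Markers of the RPE itself moved little. Of 26 tested, 2 were higher and 2 lower (15.4%, against 14.1% of all protein-coding genes), and their summed level was 27029, 23233, 24672 and 27239 CPM in WT and 24138, 25110.0, 28585, 23219 and 28711 CPM in homozygous eyecups, with overlap. Trpm3, a cation channel that is abundant in RPE, averaged 1340.0 ± 47.9 CPM in WT and 1649.5 ± 118 CPM in homozygous eyecups (0.30, adjusted p = 0.0055), and Slc6a20a, a proline transporter, averaged 294 ± 30.9 CPM in WT and 386 ± 48.1 CPM in homozygous eyecups (0.39, adjusted p = 0.012). The count of Slc6a20a is uncertain, as 32% of its stretches occur in other genes. Bmp4, a growth factor of the BMP family, averaged 162 ± 28 CPM in WT and 122 ± 13.9 CPM in homozygous eyecups (-0.41, adjusted p = 0.034). Itgav, the integrin alpha V subunit with which RPE binds shed outer segments, averaged 489 ± 33 CPM in WT and 401 ± 24 CPM in homozygous eyecups (-0.29, adjusted p = 0.031), and it was also below FUN025/+ eyecups (log2 difference -0.46, adjusted p = 0.0055). The calls of Bmp4 and Itgav did not survive leaving out single mice: Bmp4 was lost without WT replicate 3 or 4 or FUN025/FUN025 replicate 1, 2, 3 or 4, and Itgav without WT replicate 1, 2 or 3 or FUN025/FUN025 replicate 1, 3 or 4. The RPE count was 2 without WT replicate 3 or FUN025/FUN025 replicate 1, 3 or 4, and 2 with the muscle and rod covariates. Of 17 melanin and pigment cell genes, 1 was higher and 1 lower (11.8%), and both calls were lost without WT replicate 1, 3 or 4 or FUN025/FUN025 replicate 3. That count was 1 without WT replicate 2 or FUN025/FUN025 replicate 2 or 5.

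Pathways of RPE function had few calls. In the visual cycle list 1 of 26 genes was called, lower (3.85%), and the count was 0 without WT replicate 4 or FUN025/FUN025 replicate 1 or 2. In the list of outer segment phagocytosis 1 of 24 genes, Itgav, was called (4.17%), with a count of 0 without WT replicate 2 or 3 or FUN025/FUN025 replicate 3 and with the muscle and rod covariates, and of 2 without FUN025/+ replicate 1 or 5. Among 32 genes of epithelial ion transport and junctions, 2 were higher and 1 lower (9.38%). Slc12a2, the sodium potassium chloride cotransporter, was at 293, 266, 295 and 253 CPM in WT and at 396, 419, 404, 348 and 396 CPM in homozygous eyecups (log2 fold change 0.51 ± 0.07 SE, adjusted p = 6.6e-05), and each homozygous library exceeded each WT library. Cldn2, a claudin that forms cation pores, averaged 91 ± 9.01 CPM in WT and 73.7 ± 4.75 CPM in homozygous eyecups with overlap (-0.31, adjusted p = 0.012), and it was lower than in FUN025/+ eyecups too (log2 difference -0.39, adjusted p = 0.0078).

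Tissues that border the eyecup varied from library to library. The 38 striated muscle genes listed summed to 12985, 8596, 10102 and 14997 CPM in WT and 7083, 7861, 8614, 8089.5 and 8499.5 CPM in homozygous eyecups. Of the 36 tested, 6 were called lower (16.7%), at a median log2 fold change of -0.53. Actn2, alpha-actinin 2 of the sarcomere, averaged 77.2 ± 8.72 CPM in WT and 48.5 ± 8.58 CPM in homozygous eyecups (-0.67, adjusted p = 0.012, and -0.11 with the covariates, of which muscle is 1). The muscle count was 1 without WT replicate 4, 3 without FUN025/FUN025 replicate 5 and 12 without FUN025/+ replicate 5, and it was 15 with DESeq2, 14 with the 9 libraries alone and 10 with no composition scaling. The 35 rod genes listed summed to 2672, 4999.8, 2162 and 1754 CPM in WT, where replicate 2 was highest, and 1544, 2150.5, 2207, 1809.8 and 1720.0 CPM in homozygous eyecups. Of the 34 tested, 3 were called lower (8.82%) at a median of -1.54 (-0.63 without WT replicate 2). Rom1, a structural protein of outer segments, averaged 119 ± 22.5 CPM in WT and 92 ± 9.86 CPM in homozygous eyecups with overlap (-0.37, adjusted p = 0.02). The rod count was 1 without WT replicate 2, without FUN025/FUN025 replicate 1, 2, 3 or 5 and without FUN025/+ replicate 3, 4, 5 or 6, and it was 7 with DESeq2, 1 with limma-voom and 0 with the 9 libraries alone. The 16 corneal and conjunctival genes summed to 672, 790.0, 2803 and 845 CPM in WT and 3287, 1803, 1422, 2316 and 3039 CPM in homozygous eyecups. Their median log2 fold change was 0.79, with 16 of 16 values above 0 and 0 called by edgeR, DESeq2 or limma-voom (0 at an unadjusted p under 0.05). The median was 1.75 without WT replicate 3, where 1 gene was called, 0.49 without WT replicate 1 and 0.03 with the muscle and rod covariates. Krt5 and Krt15, keratins of that epithelium, stood at 1.06, adjusted p = 0.37, and 1.17, adjusted p = 0.28, on the log2 scale. The part of rod, muscle and corneal RNA in the other results was not tested beyond the covariate fit.

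**Figure D4:**
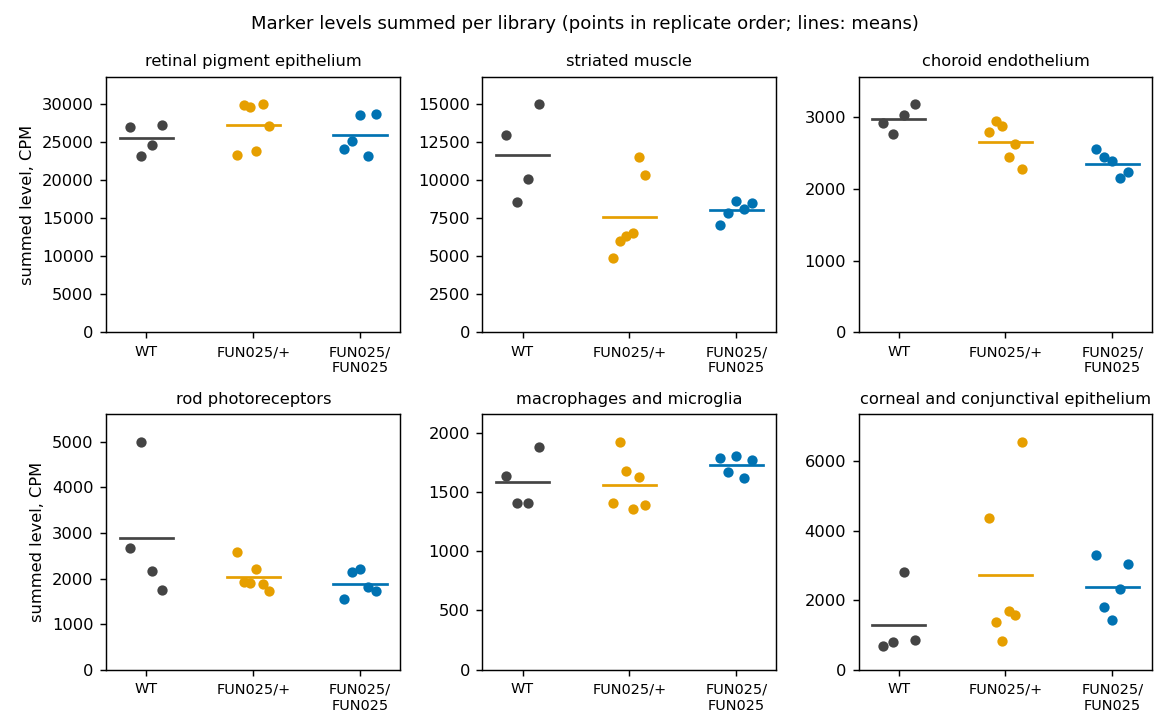
Summed CPM of 6 sets of cell type markers in each library of the 3 genotypes, each panel with its own axis. Endothelial sums of FUN025/FUN025 eyecups lie below those of WT eyecups, RPE sums overlap, WT replicate 2 is highest for rods and WT replicate 3 is high for cornea and conjunctiva.

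Among macrophage and microglial genes 5 of 30 were higher and 0 lower (16.7%), with a median log2 fold change of 0.13. The summed level was 1635, 1407, 1404 and 1877 CPM in WT and 1789.9, 1668, 1799.9, 1616 and 1772 CPM in homozygous eyecups. Trem2, a lipid-sensing receptor of these cells, was at 18.9, 18.5, 18.1 and 26.9 CPM in WT and at 29.6, 26.6, 31, 30.9 and 28.5 CPM in homozygous eyecups (log2 fold change 0.51 ± 0.13 SE, adjusted p = 0.012), and WT replicate 4 lay just above FUN025/FUN025 replicate 2 in an otherwise separate pair of groups. Trem2 also exceeded FUN025/+ eyecups (log2 difference 0.55, adjusted p = 0.032). The count was 2 without WT replicate 3, 3 without FUN025/FUN025 replicate 1, 2, 3 or 5 or FUN025/+ replicate 1, 3 or 5, and 0 with the muscle and rod covariates, where the median was -0.04. The median was 0.07 without WT replicate 2, 0.07 without WT replicate 3, 0.21 without WT replicate 1 and 0.23 without WT replicate 4. The list of lipid-associated macrophage activation was called at the background rate, 4 of 28 genes (14.3%, against 14.1%), all higher, 1 of them Cst7, which passed the filter through homozygous libraries alone and so had to differ. With the muscle and rod covariates 2 were called, and the median turned from 0.06 to -0.02. Ch25h, cholesterol 25-hydroxylase, averaged 5.13 ± 0.533 CPM in WT and 8.47 ± 1.14 CPM in homozygous eyecups (0.72, adjusted p = 0.0013), and Plin2, a coat protein of lipid droplets, averaged 93.6 ± 4.06 CPM in WT and 121 ± 6.7 CPM in homozygous eyecups (0.37, adjusted p = 0.01).

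In the complement list 4 of 31 genes were higher and 0 lower (12.9%, against 14.1% of all protein-coding genes), 1 of them Cfi, which passed the filter through homozygous libraries alone and so had to differ. C4b, a complement component whose counts are uncertain because 48.3% of its stretches occur in other genes, was at 202, 217, 170.3 and 192 CPM in WT and at 323, 286, 315, 366 and 286 CPM in homozygous eyecups (log2 fold change 0.69 ± 0.09 SE, adjusted p = 1.2e-04). The groups did not overlap, and the difference from FUN025/+ eyecups was also past the threshold (log2 difference 0.79, adjusted p = 4.9e-05). The count was 2 without WT replicate 2 or 4 or FUN025/FUN025 replicate 2, 3 or 5, and with the muscle and rod covariates it was 3 while the median turned from 0.10 to -0.11. Among 40 chemokines, cytokines and receptors 1 was higher and 3 were lower (10%). Osmr, the oncostatin M receptor, was at 157, 149, 147 and 152 CPM in WT and at 210.0, 227, 291, 204 and 231 CPM in homozygous eyecups (log2 fold change 0.62 ± 0.09 SE, adjusted p = 3.8e-04). It was above both WT and FUN025/+ eyecups (log2 difference from FUN025/+ 0.64, adjusted p = 5.4e-04). Cx3cl1, the chemokine fractalkine, averaged 62.9 ± 1.94 CPM in WT and 50.4 ± 3.1 CPM in homozygous eyecups (-0.32, adjusted p = 2.7e-04). That list had 2 calls without WT replicate 4. Of 36 interferon-stimulated genes 4 were higher and 0 lower (11.1%), and with the muscle and rod covariates 0 were called and the median turned from 0.07 to -0.21. Ifit3 and Ifit3b, closely related antiviral genes that share 61.8% and 55.3% of their stretches with other genes, rose by 0.37, adjusted p = 9.4e-04, and by 0.49, adjusted p = 0.0036, on the log2 scale, and Eif2ak2, the double-stranded RNA kinase, by 0.35, adjusted p = 0.0088. In the antigen presentation list 0 of 25 genes were called by edgeR and 1 by DESeq2 or limma-voom (3 at an unadjusted p under 0.05), and edgeR called 1 without WT replicate 1, 3 or 4, FUN025/FUN025 replicate 4 or FUN025/+ replicate 1 or 6.

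Genes of the respiratory chain and of ribosomes were mostly lower where they were called. Of 81 nuclear respiratory chain genes 26 were lower and 2 higher (34.6%), with a median log2 fold change of -0.13. Ndufb11 and Ndufa3, subunits of complex I, averaged 175 ± 18.5 CPM in WT and 116 ± 8.74 CPM in homozygous eyecups (-0.60, adjusted p = 3.9e-05) and 79 ± 11.8 CPM in WT and 51.2 ± 3.59 CPM in homozygous eyecups (-0.63, adjusted p = 5.0e-05). Atp5e, the epsilon subunit of ATP synthase, averaged 106 ± 15.7 CPM in WT and 68.7 ± 6.73 CPM in homozygous eyecups (-0.62, adjusted p = 9.3e-05). Ndufb11 shares 29% of its stretches with other genes. The count was 13 without WT replicate 4 (median -0.09), 8 with the muscle and rod covariates and 29 with the GC and length offset. Of 83 cytosolic ribosomal protein genes 30 were lower and 3 higher (39.8%), with a median of -0.13 (-0.08 without WT replicate 4). With the muscle and rod covariates 21 were called at a median of -0.25. Rps29 and Rps12 of the small subunit averaged 172 ± 15.8 CPM in WT and 84.2 ± 4.0 CPM in homozygous eyecups (-1.03, adjusted p = 2.8e-08) and 171 ± 18.6 CPM in WT and 92.1 ± 6.0 CPM in homozygous eyecups (-0.89, adjusted p = 7.4e-08). Rpl21 and Rpl39 of the large subunit stood at -0.48, adjusted p = 9.4e-06, and -0.54, adjusted p = 3.7e-05, on the log2 scale. Of the 83 genes, 56 share 20% or more of their stretches with other genes, so these counts are uncertain. Against FUN025/+ eyecups 0 genes of either list were called, with medians of 0.03 for the respiratory chain and 0.01 for the ribosome. Of 77 mitochondrial ribosomal protein genes 8 were lower and 0 higher (10.4%). Mrpl52 stood at -0.46, adjusted p = 0.0026, and the count ran from 1 without WT replicate 4 to 12 without WT replicate 1. It was 4 without WT replicate 2 or 3 or FUN025/FUN025 replicate 1, 3 without FUN025/FUN025 replicate 2, and 1 with the muscle and rod covariates.

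Of the 13 genes of the mitochondrial genome 4 were higher and 0 lower (30.8%). Besides mt-Atp8, mt-Co2 and mt-Co3, subunits of cytochrome oxidase, averaged 33.1 ± 4.36 CPM in WT and 90.6 ± 9.55 CPM in homozygous eyecups (1.45, adjusted p = 5.5e-07) and 22.3 ± 7.58 CPM in WT and 90.1 ± 9.12 CPM in homozygous eyecups (2.01, adjusted p = 4.7e-04), and mt-Nd3 of complex I averaged 8.87 ± 2.85 CPM in WT and 18 ± 2.3 CPM in homozygous eyecups (1.02, adjusted p = 6.1e-04). These 3 genes share 98.1% to 100% of their stretches with other genes, which leaves their values uncertain. FUN025/+ eyecups were at 89.5 ± 12.6 CPM, 99.9 ± 39.2 CPM and 17.3 ± 2.53 CPM.

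In the list of the unfolded protein and integrated stress responses 7 of 40 genes were lower and 2 higher (22.5%). Atf4, the transcription factor of the integrated stress response, was at 121, 133, 126 and 141 CPM in WT and at 99.4, 97.7, 105, 93.2 and 101 CPM in homozygous eyecups (log2 fold change -0.39 ± 0.05 SE, adjusted p = 1.1e-04). Hspa5, the chaperone BiP of the endoplasmic reticulum, was at 453, 488, 529.6 and 455 CPM in WT and at 399, 317, 332, 356 and 361 CPM in homozygous eyecups (log2 fold change -0.45 ± 0.07 SE, adjusted p = 5.8e-04). Both were lower in every homozygous library than in any WT library. Ppp1r15a, a phosphatase subunit that ends the response, averaged 36.3 ± 2.56 CPM in WT and 25.4 ± 1.48 CPM in homozygous eyecups (-0.52, adjusted p = 2.5e-04), and Hyou1, another chaperone of the endoplasmic reticulum, averaged 99.2 ± 7.53 CPM in WT and 82.9 ± 4.13 CPM in homozygous eyecups (-0.26, adjusted p = 0.0074). The count was 4 without WT replicate 4 and 5 without WT replicate 3 or FUN025/FUN025 replicate 2, and 4 with the muscle and rod covariates. FUN025/+ eyecups were at 99.8 ± 5.74 CPM for Atf4 and 369 ± 30.9 CPM for Hspa5, and 0 genes of the list differed between the mutant genotypes. Heat shock genes were called at about the background rate, 3 of 22 (13.6%, against 14.1%), all lower: Bag3, a co-chaperone (-0.41, adjusted p = 0.0017), Hsph1, a chaperone of the HSP110 family (-0.33, adjusted p = 0.0023), and Hsf1, the heat shock transcription factor (-0.27, adjusted p = 0.0047). With the muscle and rod covariates 0 of them were called, and the median turned from -0.04 to 0.01. Ier5, an immediate early gene, averaged 41.7 ± 3.4 CPM in WT and 27.9 ± 1.64 CPM in homozygous eyecups (-0.58, adjusted p = 3.4e-05) and was 1 of 2 called of 26 (7.69%). That count was 1 with the muscle and rod covariates, without any 1 of the WT mice, and without FUN025/FUN025 replicate 1, 2, 3 or 5 or FUN025/+ replicate 3, 4 or 5. In the proteasome list 0 of 38 were called by edgeR, DESeq2 or limma-voom (1 at an unadjusted p under 0.05).

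Lysosomal genes were called at the background rate, 9 of 63 (14.3% against 14.1%), 7 higher and 2 lower, and 1 with the muscle and rod covariates. Scarb2, a lysosomal membrane protein, averaged 178 ± 6.75 CPM in WT and 212 ± 11 CPM in homozygous eyecups (0.25, adjusted p = 0.0036), and Asah1, acid ceramidase, averaged 136 ± 5.26 CPM in WT and 156 ± 4.79 CPM in homozygous eyecups (0.20, adjusted p = 0.0064). Tfeb, the transcription factor of lysosome formation, averaged 37.6 ± 4.04 CPM in WT and 30.7 ± 1.74 CPM in homozygous eyecups (-0.29, adjusted p = 0.0089).

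Genes of lipid handling other than synthesis changed in both directions. In the list of cholesterol uptake, efflux and carriage 6 of 27 genes were higher and 0 lower (22.2%), and 2 were called with the muscle and rod covariates. Soat1, which esterifies cholesterol for storage, was at 139, 140.3, 130.3 and 138 CPM in WT and at 194, 194, 204, 194 and 193 CPM in homozygous eyecups (log2 fold change 0.51 ± 0.05 SE, adjusted p = 2.6e-06). The groups did not overlap, and Soat1 also exceeded FUN025/+ eyecups (log2 difference 0.44, adjusted p = 2.8e-05). Mylip, which marks the LDL receptor for degradation, averaged 79.7 ± 5.97 CPM in WT and 97.1 ± 3.94 CPM in homozygous eyecups (0.28, adjusted p = 0.0024). In the lipid droplet and triglyceride list 3 of 27 genes were higher and 4 lower (25.9%), and 2 were called with those covariates. Gpam, the first enzyme of triglyceride synthesis, averaged 349 ± 29.2 CPM in WT and 482 ± 26.9 CPM in homozygous eyecups (0.46, adjusted p = 1.9e-04), and Pnpla3, a lipid droplet hydrolase, averaged 3.7 ± 0.711 CPM in WT and 6.82 ± 1.22 CPM in homozygous eyecups (0.88, adjusted p = 0.0091). Of 29 genes of mitochondrial fatty acid oxidation and ketones 1 was higher and 3 were lower (13.8%, and 2 called with the covariates), among them Pdk4, a brake on glucose oxidation (-0.61, adjusted p = 0.007), Ucp3, an uncoupling protein of muscle (-0.63, adjusted p = 0.0053), and Etfb, an electron carrier (-0.95, adjusted p = 1.0e-04), of which 49.9% is shared with other genes. Of 42 peroxisome genes 7 were higher and 2 lower (21.4%). Mpv17l averaged 45.9 ± 4.12 CPM in WT and 62.9 ± 6.17 CPM in homozygous eyecups (0.45, adjusted p = 0.0015) and Abcd3, a peroxisomal fatty acid transporter, averaged 178 ± 12.3 CPM in WT and 208 ± 11.5 CPM in homozygous eyecups (0.22, adjusted p = 0.0097). The peroxisome count was 3 without WT replicate 4, 5 without WT replicate 2 or FUN025/FUN025 replicate 1 or 5, and 0 with the muscle and rod covariates.

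Matrix lists were called at about the background rate (14.1%). Of 42 collagen genes 5 were lower and 1 higher (14.3%). Their median of -0.12 was -0.03 with the GC and length offset, -0.27 with the muscle and rod covariates and -0.07 without WT replicate 1, and DESeq2 called 11. Col8a1, a short-chain collagen of Descemet's and Bruch's membranes, was at 885, 657, 774 and 653 CPM in WT and at 1085, 1176, 1240.4, 1025 and 1159.9 CPM in homozygous eyecups (log2 fold change 0.62 ± 0.09 SE, adjusted p = 2.2e-04), higher in every homozygous library. Col4a1 and Col4a2, the main chains of vessel basement membranes, averaged 213 ± 9.63 CPM in WT and 159 ± 11.4 CPM in homozygous eyecups (-0.42, adjusted p = 0.0034) and 186 ± 9.62 CPM in WT and 142 ± 8.99 CPM in homozygous eyecups (-0.39, adjusted p = 0.0016), and Col5a3 averaged 29 ± 3.09 CPM in WT and 19.2 ± 2.26 CPM in homozygous eyecups (-0.59, adjusted p = 8.7e-04). In the list of basement membrane, elastic fibre and matrix turnover 9 of 60 genes were lower and 0 higher (15%), and the median of -0.11 was -0.04 with that offset, where 5 were called. Eln, elastin, averaged 145 ± 18.1 CPM in WT and 106 ± 7.51 CPM in homozygous eyecups (-0.46, adjusted p = 0.015), Htra1, a secreted serine protease, averaged 120.5 ± 8.02 CPM in WT and 95.9 ± 6.59 CPM in homozygous eyecups (-0.33, adjusted p = 0.0044), and Loxl4, a lysyl oxidase, averaged 37.5 ± 3.03 CPM in WT and 22.8 ± 6.23 CPM in homozygous eyecups (-0.72, adjusted p = 0.015). That count was 5 without WT replicate 3 or 4 or FUN025/FUN025 replicate 3, 4 without FUN025/FUN025 replicate 5, and 1 with the muscle and rod covariates.

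Signalling lists split by direction. Of 46 TGF-beta and BMP genes 6 were higher and 7 lower (28.3%). Nog, noggin, which binds BMPs, was at 86.6, 60.9, 78.2 and 96 CPM in WT and at 36.9, 36.8, 39.97, 46.6 and 46.1 CPM in homozygous eyecups (log2 fold change -0.96 ± 0.16 SE, adjusted p = 0.0013), without overlap. Eng and Acvrl1, endothelial receptors of the family, averaged 259 ± 24.5 CPM in WT and 172 ± 22.4 CPM in homozygous eyecups (-0.59, adjusted p = 0.0019) and 108 ± 5.52 CPM in WT and 83.2 ± 10.8 CPM in homozygous eyecups (-0.37, adjusted p = 0.005), while Smad2, a signal transducer, averaged 46.6 ± 2.76 CPM in WT and 57.1 ± 3.45 CPM in homozygous eyecups (0.29, adjusted p = 9.5e-04). That count was 7 without WT replicate 4, 8 without WT replicate 3 and 2 with the muscle and rod covariates. Of 47 Wnt genes 7 were higher and 4 lower (23.4%). The ligand Wnt2b (0.52, adjusted p = 0.0032), the secreted inhibitor Dkk2 (0.39, adjusted p = 0.0054) and the coreceptor Lrp6 (0.28, adjusted p = 0.014) were higher. The Wnt count was 5 without WT replicate 3 or 4, 7 without FUN025/FUN025 replicate 3 and 1 with the muscle and rod covariates.

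Of 23 clock genes 6 were higher and 2 lower (34.8%). Arntl (Bmal1), an activator of the clock, was at 14.3, 20.4, 12.9 and 14.4 CPM in WT and at 7.46, 4.99, 8.09, 10.1 and 11.3 CPM in homozygous eyecups (log2 fold change -0.89 ± 0.20 SE, adjusted p = 0.006). Per3, a repressor of the clock, was at 134, 109, 126 and 114 CPM in WT and at 173, 194, 167, 159 and 138 CPM in homozygous eyecups (log2 fold change 0.46 ± 0.10 SE, adjusted p = 0.0043). The genotypes did not overlap for either. Nr1d2, a repressor of Arntl, averaged 262 ± 13.8 CPM in WT and 321 ± 23.3 CPM in homozygous eyecups (0.30, adjusted p = 0.0019), and Csnk1e, a kinase of the PER proteins, averaged 71.5 ± 8.03 CPM in WT and 57.4 ± 2.97 CPM in homozygous eyecups with overlap (-0.32, adjusted p = 0.0039). FUN025/+ eyecups were at 8.69 ± 1.53 CPM for Arntl and 153 ± 16.8 CPM for Per3. Eyes were collected within a window around noon, and the time of each mouse was not given. The clock count was 4 without WT replicate 4 and 3 with the muscle and rod covariates.

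In the list of mitochondrial fission and fusion 4 of 29 genes were higher and 3 lower (24.1%), with Tmem135 itself among the higher. Mief2, an adaptor that recruits the fission GTPase Drp1, averaged 24.2 ± 1.91 CPM in WT and 19.5 ± 1.52 CPM in homozygous eyecups (-0.31, adjusted p = 0.02), and Mtfp1, an inner membrane protein of mitochondrial fission, averaged 21.2 ± 1.86 CPM in WT and 16.9 ± 1.04 CPM in homozygous eyecups (-0.33, adjusted p = 0.021). Yme1l1, a protease that processes the fusion protein Opa1, averaged 118 ± 7.59 CPM in WT and 135 ± 5.77 CPM in homozygous eyecups with overlap (0.19, adjusted p = 0.014). The call of Mief2 was lost without WT replicate 4 or FUN025/FUN025 replicate 2 or 5, that of Mtfp1 without WT replicate 2 or 3 or FUN025/FUN025 replicate 2, and that of Yme1l1 without WT replicate 4. The count was 2 without WT replicate 4 or FUN025/FUN025 replicate 2, 3 without WT replicate 3, 4 without FUN025/FUN025 replicate 3 or 5, 2 with the muscle and rod covariates and 3 with the GC and length offset.

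Of 15 genes of nicotinic and muscarinic receptors 2 were higher, Chrna3 and Chrnb4, and 2 lower (26.7%), 1 of the lower having passed the filter through WT libraries alone. That count was 2 without WT replicate 2 or FUN025/FUN025 replicate 1 and with the muscle and rod covariates. Of 11 genes of the podocyte slit diaphragm 2 were higher, Nphs1 among them, and 1 lower (27.3%), and 1 was called with the GC and length offset. In the glycolysis and lactate list 2 of 34 were higher and 1 lower (8.82%), and the count was 5 without FUN025/+ replicate 1, 5 with the GC and length offset and 1 with the covariates. Hk2, a hexokinase, averaged 48.7 ± 6.23 CPM in WT and 33.8 ± 5.28 CPM in homozygous eyecups (-0.53, adjusted p = 0.01), and its log2 value was -0.0112 with the covariates. In the synaptic vesicle list 3 of 35 were lower (8.57%) at a median of -0.31 (-0.15 without WT replicate 2 and -0.005 with the covariates). The count was 1 without WT replicate 2 or FUN025/FUN025 replicate 2 or 5, 6 without WT replicate 3 and 0 with the covariates. Unc13a, which primes synaptic vesicles, averaged 28.3 ± 5.34 CPM in WT and 21.4 ± 1.58 CPM in homozygous eyecups (-0.40, adjusted p = 0.011).

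Of 20 Schwann cell and myelin genes 3 were lower (15%), and 1 without WT replicate 4 or with the muscle and rod covariates. Of 38 cell cycle genes 1 was higher and 2 lower (7.89%), with Cdk6 at 0.36, adjusted p = 0.013, and the count was 1 without WT replicate 3 or 4 or FUN025/FUN025 replicate 3 or 5 and with the covariates. Of 31 genes of the Polycomb complex PRC1.1 and corepressors 0 were higher and 3 lower (9.68%, and 1 called with the covariates), with the corepressor Bcor at -0.21, adjusted p = 0.0032. By edgeR 0 genes were called among markers of mast cells (5 tested), lymphocytes (4), lens (8), ciliary body and iris (13), erythrocytes (6) and adipocytes (5). At an unadjusted p under 0.05 these lists held 0, 0, 1, 4, 0 and 1 genes in that order, DESeq2 called 1 adipocyte gene and limma-voom 0 genes of these lists. Leaving out 1 mouse gave 1 call for lens (FUN025/FUN025 replicate 4) and 1 for ciliary body and iris (WT replicate 1 or 4 or FUN025/FUN025 replicate 1 or 5). With the GC and length offset the count was 0 for rods, 3 for macrophages and microglia, 4 for lipid droplets, 4 for peroxisomes, 1 for melanin, 1 for immediate early, 1 for cell cycle, 2 for proteasome and 1 for ciliary body genes.

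The remaining lists held at most 2 calls each. Of 45 antioxidant and NRF2 target genes 1 was higher and 1 lower (4.44%), with a count of 0 without FUN025/FUN025 replicate 1, of 1 without WT replicate 1, 3 or 4 or FUN025/FUN025 replicate 3 or 5, of 1 with the muscle and rod covariates and of 5 with the GC and length offset. Of 20 ephrins and Eph receptors 1 was lower (5%), with a count between 0 and 3 when 1 mouse was left out (3 without WT replicate 1, 0 without WT replicate 3 or 4 or FUN025/FUN025 replicate 3 or 5) and of 0 with the covariates or the offset. Of 11 cone markers 1 was higher and 1 lower (18.2%), which are Gnb3 and Pde6c, and the call of Gnb3 depended on single mice as given above. Of 18 markers of bipolar, amacrine and ganglion cells 1 was lower (5.56%; 0 without WT replicate 4 and with the covariates, 2 without FUN025/+ replicate 6), and of 15 markers of Muller glia and astrocytes 1 was higher (6.67%; 0 without WT replicate 4 or FUN025/FUN025 replicate 2, 3 or 5, and 2 without WT replicate 1 or FUN025/+ replicate 1). Of 28 fibroblast markers 1 was lower (3.57%; 0 without FUN025/FUN025 replicate 5, 4 without FUN025/FUN025 replicate 1, and 2 without FUN025/FUN025 replicate 2 or FUN025/+ replicate 1 or 6).

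**Figure D5:**
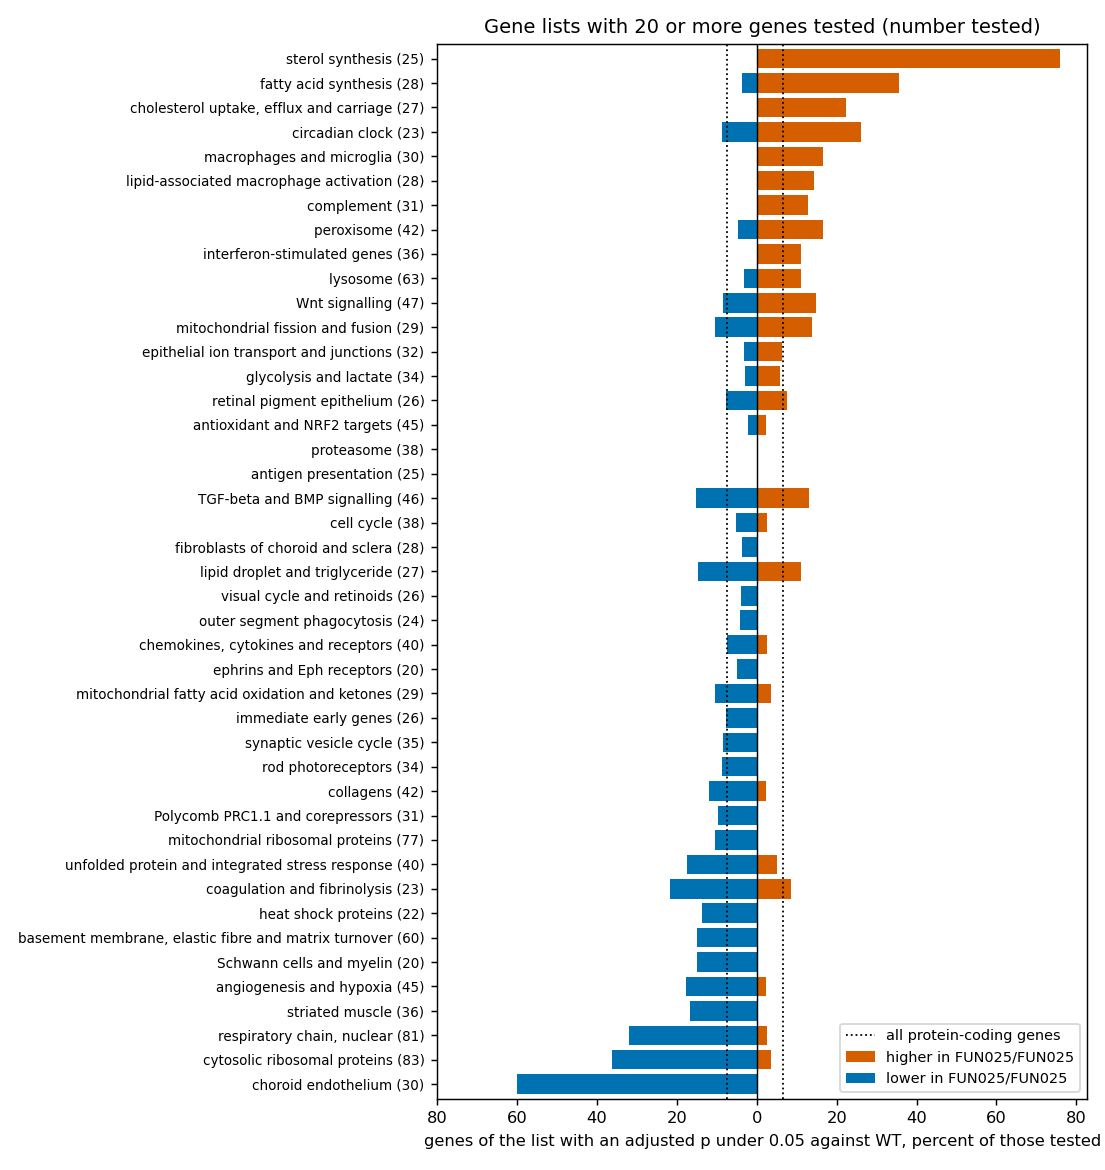
Share of each gene list with an adjusted p under 0.05 between FUN025/FUN025 and WT eyecups, higher to the right and lower to the left, for lists with 20 or more genes tested. Dotted lines mark the 6.5% and 7.56% of all protein-coding genes, and the endothelial list reaches furthest to the left, followed by the cytosolic ribosomal and nuclear respiratory chain lists.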

How the data were processed

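Per the labels and methods, poly(A) RNA of eyecups was made into paired-end libraries with a kit that does not mark strand. The submitters' processing notes name FastQC 0.11.8, Trimmomatic 0.39, HISAT2 2.1.0, SAMtools and featureCounts 2.0.0 on GRCm38. The authors deposited raw counts per gene, 1 file per mouse. Each mouse is 1 replicate. Gene types and positions came from GENCODE annotation of GRCm38, which held 55240 of 55421 listed genes. All 15 libraries entered 1 fit in edgeR 4.0.16 (R 4.3.3) with TMM scaling and the robust quasi-likelihood test, contrast FUN025/FUN025 minus WT, with Benjamini-Hochberg adjustment over 17691 genes and a threshold of 0.05. On simulated data with 200 genes changed 2-fold, 83% were recovered, and 6.74% of 178 calls were on unchanged genes. The simulated counts had no GC gradient and no shared shifts in tissue RNA, and most genes called here changed by less than 1.5-fold. These rates need not hold for the results above. Shared sequence is the share of a gene's 31-base stretches found in other genes.

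Named genes were Tmem135, the 15 top rises and 15 top falls by log2 fold change, and genes of each list. The rises and falls were of called protein-coding genes with a mean of 1 CPM, no overlap of groups and under 20% shared sequence. Symbols of the Gm or Rik style and genes of the sterol or fatty acid synthesis lists were left out. Of each gene list up to 4 called genes of smallest adjusted p were chosen. Lists with few or no calls also gave their members of highest mean CPM. Of the genes so chosen, 4 are not reported here. The genes compared, the 58 gene lists (1641 genes tested) and the tests were chosen with earlier results of these data known. Alternatives were RLE, upper-quartile and no scaling, DESeq2 1.42.0, limma-voom (limma 3.58.1), the 9 libraries alone, no filter, a minimum of 10 counts, filterByExpr, thinning to 10903183 counts, a replicate block, the Xist level, the striated muscle and rod marker levels, an offset for GC content and length that was added after the data were seen, and the omission of each mouse.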

Additional observations from a re-analysis of the deposited data

Results flagged for a closer look

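In 31 of 294 groups of 4 or 5 libraries (10.54%), 1 library stood apart from the others of its genotype, by a gap test on its distance to the nearest library. Chance gives about 1 group in 20. WT replicate 2 stood apart in 10 groups and WT replicate 4 in 7. FUN025/FUN025 replicate 1 was at CPM values of 91.2 for Rps29 (others 81.4 to 83.1). FUN025/FUN025 replicate 2 was at CPM values of 22.8 for Ppp1r15a (others 25.7 to 26.6). FUN025/FUN025 replicate 3 was at CPM values of 94.3 for Chrnb4 (others 68.3 to 75.3) and 204 for Soat1 (others 193 to 194). FUN025/FUN025 replicate 4 was at CPM values of 43.8 for Esam (others 47.2 to 48.6), 50.1 for Eif2ak2 (others 41.1 to 42.8), 8.67 for Etfb (others 6.65 to 7.21) and 2040.0 for summed bipolar, amacrine and ganglion cells markers (others 1393 to 1539). FUN025/FUN025 replicate 5 was at CPM values of 0.546 for Fam196a (others 1.92 to 2.15) and 33.5 for Loxl4 (others 17.3 to 21.6). WT replicate 1 was at CPM values of 45 for Notch4 (others 53.4 to 54.5). WT replicate 2 was at CPM values of 9.98 for Cdk5r2 (others 1.25 to 1.88), 8.9 for Samd7 (others 1.1 to 2.32), 56.3 for Slc12a5 (others 12.7 to 18.9) and 12.1 for Wdr17 (others 3.41 to 4.75). It was also at 6.7 for Syt13 (others 2.16 to 2.42), 17.3 for Ucp3 (others 13.8 to 14.2), 33.6 for mt-Co3 (others 17.4 to 19.5) and 13.1 for mt-Nd3 (others 7.35 to 7.6). It was also at 17.9 for Mfsd2a (others 21.2 to 21.6) and 12704 for summed melanin and pigment cells markers (others 11146 to 11264). WT replicate 3 was at CPM values of 707 for Krt5 (others 123 to 150.2), 727 for Krt15 (others 124 to 159) and 2803 for summed corneal and conjunctival epithelium markers (others 672 to 845). WT replicate 4 was at CPM values of 89.8 for Atp5k (others 65.3 to 69.2), 129 for Ramp2 (others 96.3 to 101), 26.9 for Trem2 (others 18.1 to 18.9) and 129 for Atp5e (others 95.5 to 101). It was also at 241 for Nr1d2 (others 266 to 271), 68.7 for Cntnap2 (others 57.1 to 59) and 56.7 for summed adipocytes markers (others 20.5 to 21.3).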

How the results depend on the processing

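The 14 alternatives and the omission of each of the 15 mice kept the call and direction of 53 of the 126 called genes named. With the striated muscle and rod marker levels as covariates 633 of all 17691 genes and 471 protein-coding genes were called, against 2638 and 2039, 67 named genes lost their call, and Wdr17 reversed to a log2 fold change of 0.0268. A block on the replicate number gave 1220 genes and 899 protein-coding genes, and 28 named genes lost their call. The correlations of same-numbered FUN025/FUN025 and WT libraries were -0.18, 0.04, -0.20 and 0.04, so that they share only a number. Without 1 mouse the counts ran from 1532 (without WT replicate 4) to 2664 for all genes, from 1122 (without WT replicate 4) to 2063 for protein-coding genes, and from 52 to 115 (without WT replicate 3) for the 2-fold count of 69, and 15 named genes lost their call. DESeq2 gave 104 genes at 2-fold, 46 higher and 58 lower, as did the test with no filter on low counts, 52 higher and 52 lower. The share of protein-coding calls that were higher was 46.2%, and 40.6% to 51.3% under the other scalings. The cause of these shifts was not tested. Counts of gene lists that moved by over 1.5 times and are not given beside the list included the following. With the replicate block 12 muscle, 2 macrophage, 0 rod, 1 cone, 1 melanin, 2 ciliary body and iris, 2 complement and 3 lysosome genes were called. The block also gave 4 stress response, 2 mitochondrial fission and fusion, 1 peroxisome, 4 angiogenesis, 8 TGF-beta and BMP and 5 Wnt genes. Synaptic vesicle, Polycomb and ephrin genes had 0 calls with it, clock genes 5 and cytosolic ribosomal genes 21. DESeq2 called 5 pericyte, 3 fibroblast, 2 bipolar, amacrine and ganglion cell, 2 Muller glia, 8 macrophage activation, 7 chemokine and cytokine, 4 antioxidant, 7 glycolysis, 2 outer segment phagocytosis, 6 synaptic vesicle and 2 ephrin genes, and limma-voom 4 antioxidant and 2 ephrin genes. With the 9 libraries alone 1 cone, 5 peroxisome, 7 glycolysis, 2 outer segment phagocytosis, 5 matrix turnover and 1 synaptic vesicle genes were called. With no filter on low counts 3 muscle, 3 macrophage, 1 rod, 1 cone, 2 Muller glia, 1 immediate early, 1 antioxidant, 0 visual cycle and 2 ephrin genes were called, and with filterByExpr 3 macrophage, 2 outer segment phagocytosis and 2 ephrin genes. Thinning gave 1 cone, 1 immediate early, 4 mitochondrial fission and fusion, 5 peroxisome, 2 outer segment phagocytosis and 1 synaptic vesicle genes, RLE scaling 3 macrophage and 2 outer segment phagocytosis genes, no scaling 1 cone gene and upper-quartile scaling 1 immediate early gene. The Xist level as a covariate gave 4 fibroblast, 10 muscle, 3 macrophage, 2 bipolar, amacrine and ganglion cell, 1 immediate early, 4 antioxidant, 2 visual cycle, 4 outer segment phagocytosis and 2 ephrin genes. Values against FUN025/+ eyecups were not recomputed under the alternatives. Shallower FUN025/FUN025 libraries limit what can be seen near 0.273 CPM, the level of 3 counts in the smallest.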

Other observations

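Genes outside the naming rule, chosen after their values were seen, differed between FUN025/FUN025 eyecups and both other genotypes, which share the homozygous libraries. Sulf2, an extracellular sulfatase of heparan sulfate, was at 34.5, 39.3, 36.4 and 38 CPM in WT and at 65, 53.9, 66.7, 55.6 and 52.6 CPM in homozygous eyecups (log2 fold change 0.67 ± 0.09 SE, adjusted p = 1.3e-04, and against FUN025/+ 0.91, adjusted p = 7.5e-06). Daam1, a formin of the Wnt planar polarity pathway, was at 80.6, 83, 78.9 and 75.1 CPM in WT and at 118, 117, 133, 129 and 121 CPM in homozygous eyecups (log2 fold change 0.64 ± 0.05 SE, adjusted p = 2.9e-07, and against FUN025/+ 0.49, adjusted p = 7.5e-06). Both genes were higher in every homozygous library than in any WT library. Myo5b, an unconventional myosin of vesicle transport, averaged 46.8 ± 5.03 CPM in WT and 78.6 ± 5.62 CPM in homozygous eyecups (0.75, adjusted p = 3.6e-06), and Stat3, the transcription factor downstream of cytokine receptors, averaged 130.4 ± 5.11 CPM in WT and 171 ± 9.24 CPM in homozygous eyecups (0.39, adjusted p = 5.9e-05). Pcolce, which enhances procollagen processing, averaged 482 ± 31.6 CPM in WT and 656 ± 50.7 CPM in homozygous eyecups (0.44, adjusted p = 1.4e-04), and Mfsd2a, a carrier of docosahexaenoic acid as lysophospholipid, averaged 20.5 ± 1.77 CPM in WT and 34.1 ± 7.61 CPM in homozygous eyecups (0.73, adjusted p = 0.0017). Against FUN025/+ the log2 differences were 0.52, adjusted p = 3.7e-04 for Myo5b, 0.40, adjusted p = 7.2e-05 for Stat3, 0.51, adjusted p = 5.5e-05 for Pcolce and 0.63, adjusted p = 0.019 for Mfsd2a.

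Other genes chosen in the same way were lower. Slc6a13, a GABA and taurine transporter, was at 336, 323, 323 and 382 CPM in WT and at 229.6, 206, 215, 243 and 276 CPM in homozygous eyecups (log2 fold change -0.54 ± 0.09 SE, adjusted p = 8.0e-04). Slc22a8, an organic anion transporter, averaged 156 ± 12.3 CPM in WT and 115 ± 13.3 CPM in homozygous eyecups (-0.44, adjusted p = 0.0015). Olfm1, a secreted neuronal glycoprotein, was at 112, 112, 116 and 115 CPM in WT and at 77.2, 78.1, 84.7, 75 and 82.3 CPM in homozygous eyecups (log2 fold change -0.52 ± 0.05 SE, adjusted p = 5.4e-07). Slc6a13 and Olfm1 did not overlap between the genotypes. Cdhr1, a cadherin of photoreceptor discs, averaged 159 ± 14.5 CPM in WT and 88.8 ± 13.1 CPM in homozygous eyecups (-0.84, adjusted p = 5.8e-04), Lrit2 averaged 25 ± 4.82 CPM in WT and 13.3 ± 1.44 CPM in homozygous eyecups (-0.91, adjusted p = 1.2e-04), and Cntnap2, a neurexin family member, averaged 60.8 ± 5.35 CPM in WT and 45.7 ± 4.51 CPM in homozygous eyecups (-0.41, adjusted p = 0.0027). Against FUN025/+ the log2 differences were -0.45, adjusted p = 0.015 for Slc6a13, -0.51, adjusted p = 0.0011 for Slc22a8, -0.32, adjusted p = 3.5e-04 for Olfm1, -0.63, adjusted p = 0.022 for Cdhr1, -0.58, adjusted p = 0.028 for Lrit2 and -0.40, adjusted p = 0.013 for Cntnap2. Slc22a8, Cdhr1, Lrit2 and Cntnap2 lost their calls against WT with the striated muscle and rod marker levels as covariates.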
